A study of Mus musculus with 6 samples.

Results

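Transcripts of 6 voltage-gated sodium channel subunit genes were followed in the left atrium of mice with a leaking mitral valve. They are the beta subunit genes Scn2b, Scn3b and Scn4b and the pore subunit genes Scn4a, Scn7a and Scn10a, each found by its symbol, 6 genes out of 55471 listed. In the mitral regurgitation group (MR), adult male C57BL/6J mice had the anterior mitral leaflet punctured under echocardiographic guidance at 10 weeks of age. In the Sham group, mice of the same sex, strain and age had the cardiac apex punctured and the leaflet left intact. Left atria were taken 2 weeks after surgery and gave 3 poly(A) RNA libraries a group, which the design calls biological replicates.

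Voltage-gated sodium channels open when the membrane depolarises, and the inward sodium current that follows drives the upstroke of the action potential in atrial muscle, on which conduction depends. Each channel has 1 large pore-forming protein and may carry smaller beta subunits, single-pass membrane proteins with an immunoglobulin-like outer domain that alter gating and surface delivery and act in cell adhesion. The proteins of Scn2b and Scn4b are linked to the pore by a disulfide bond, whereas that of Scn3b binds without one. Scn4a encodes the main channel of skeletal muscle, and Scn10a a channel of sensory neurons that resists tetrodotoxin. From the Scn10a gene the mouse heart is also known to make a short transcript covering its last part. Scn7a encodes a relative of these channels that responds to sodium concentration rather than to voltage and is known from glia and other non-neuronal cells.

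Library totals ran from 14124407 to 19222343 counts in MR and from 14718462 to 20039490 in Sham, and a floor of 3 counts corresponded to 0.15 to 0.219 CPM (counts scaled to the library total, here after TMM scaling of the totals). Atrial muscle genes dominated all libraries, with Myl7, the atrial myosin light chain, at 4770 to 6420 CPM in MR and 7140 to 8700 CPM in Sham. Myl2, its ventricular counterpart, stayed at 0.798 to 2.3 CPM in MR and 0.533 to 1.02 CPM in Sham. Other ventricular markers were higher, such as Myl3 at 48.1 to 52.6 CPM in MR and 124 to 154 CPM in Sham. The 5 ventricular markers summed to 119 to 169 CPM in MR and 251 to 307 CPM in Sham, and of 4 tested 1 rose and 1 fell. The 8 atrial cardiomyocyte markers summed to 65400 to 78700 CPM in MR and 86500 to 99200 CPM in Sham, lowest in MR library 2, and 5 of them fell while 0 rose. In bulk tissue, fewer cardiomyocytes and less of these RNAs per cardiomyocyte cannot be told apart. All 3 MR libraries also held transcripts known from the right atrium: Bmp10, a BMP ligand gene, had 2900, 3050 and 3370 CPM in the MR libraries, numbered 1 to 3, and 0.266, 0.146 and 0.217 CPM in Sham libraries 1 to 3. Hamp, the hepcidin gene, was at 60 to 72.7 CPM in MR and 1.9 to 4.84 CPM in Sham. Of 8 tested sinus node and conduction markers 4 rose and 0 fell, among them Hcn4, a pacemaker channel gene, at 22.3, 10.3 and 3.59 CPM in MR and 2.24, 2.63 and 2.96 CPM in Sham. Since every MR library carried the right atrial transcripts, no result below can be given without them, and they cannot be told apart from MR itself. Macrophage and endothelial markers had higher sums in each MR library than in any Sham library, and 6 of 6 and 3 of 5 of them rose. The sum of 6 fibroblast markers was also higher in each MR library, at 4260 to 4970 CPM against 3570 to 3710 CPM in Sham. Of these 6, 1 rose and 0 fell. Among all tested genes 11.8% rose and 10.6% fell. The 8 adipocyte markers were high in MR libraries 1 and 2, with sums of 514, 799 and 140 CPM in MR libraries 1 to 3 and of 119 to 145 CPM in Sham. The part of these differences in the results below was not tested, except where stated.

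Scn2b and Scn4b are next to each other among the protein-coding genes of chromosome 9, on the same strand, and differ in the base content before their starts. They are shown because these neighbours, both disulfide-linked beta subunits, had very different levels. The 250 bases before each start are given on the plus strand from RefSeq (GRCm38.p6), 5′ to 3′, with each CG dinucleotide in capitals.
Scn4b, chr9:45138374-45138623: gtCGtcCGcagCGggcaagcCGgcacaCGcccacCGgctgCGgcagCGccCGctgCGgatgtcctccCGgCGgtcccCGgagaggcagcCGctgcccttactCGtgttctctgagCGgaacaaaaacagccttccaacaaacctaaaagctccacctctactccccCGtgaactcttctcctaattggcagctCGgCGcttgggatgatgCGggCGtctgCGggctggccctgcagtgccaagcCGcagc
Scn2b, chr9:45117626-45117875: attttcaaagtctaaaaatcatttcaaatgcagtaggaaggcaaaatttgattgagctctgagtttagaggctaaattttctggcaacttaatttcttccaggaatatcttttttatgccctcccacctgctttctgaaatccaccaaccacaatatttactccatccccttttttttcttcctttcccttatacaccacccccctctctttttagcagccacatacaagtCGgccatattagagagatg
The Scn4b window held 23 CG dinucleotides at a GC content of 66%, and 13.3% of 32851 RefSeq windows of this length held at least as many. The Scn2b window held 1 at a GC content of 38.4%, a number reached by 92.1% of windows, with a median of 6 over all windows. Sequence windows were at hand for 5 of the 6 genes. Those of Scn7a, Scn4a and Scn10a held 3, 4 and 8 CG dinucleotides. Scn7a was the most abundant of the 6 genes, and whether CG number bears on level was not tested. The bases after the RefSeq starts of Scn4a and Scn10a were not found in a GENCODE transcript. All windows describe only the bases before annotated starts. Whether these starts were used in the left atrium was not tested, and no methylation or factor binding was measured here.

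Levels between genes are compared in the authors' TPM, counts corrected for gene length and scaled to the same total in each library. In MR, Scn7a averaged 26.5 ± 1.62 TPM, Scn4a 7.13 ± 1.85, Scn10a 5.16 ± 1.85, Scn4b 4.72 ± 3.56, Scn3b 1.77 ± 1.05 and Scn2b 0.344 ± 0.0719 TPM (SD, n = 3). In Sham, Scn7a averaged 20 ± 1.11 TPM, Scn4a 10.4 ± 1.22, Scn4b 10.0 ± 1.01, Scn10a 6.35 ± 1.71, Scn3b 0.44 ± 0.115 and Scn2b 0.264 ± 0.235 TPM (SD, n = 3). Scn7a was therefore the most abundant of the 6 in both groups. In MR the levels of Scn4a, Scn10a and Scn4b lay within their spread of each other, as did those of Scn4a and Scn4b in Sham, and those of Scn3b and Scn2b in Sham. In MR the ranges of Scn4b and Scn3b also overlapped. Within each MR library, however, Scn4a was above both Scn10a and Scn4b. In MR libraries 1 to 3 it had 8.95, 5.25 and 7.18 TPM. Scn10a had 6.75, 3.13 and 5.61 TPM there, and Scn4b 8.28, 1.16 and 4.72 TPM. The deposited counts per gene do not show which Scn10a transcript was read, so the length behind its TPM may not apply.

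**Figure D1:**
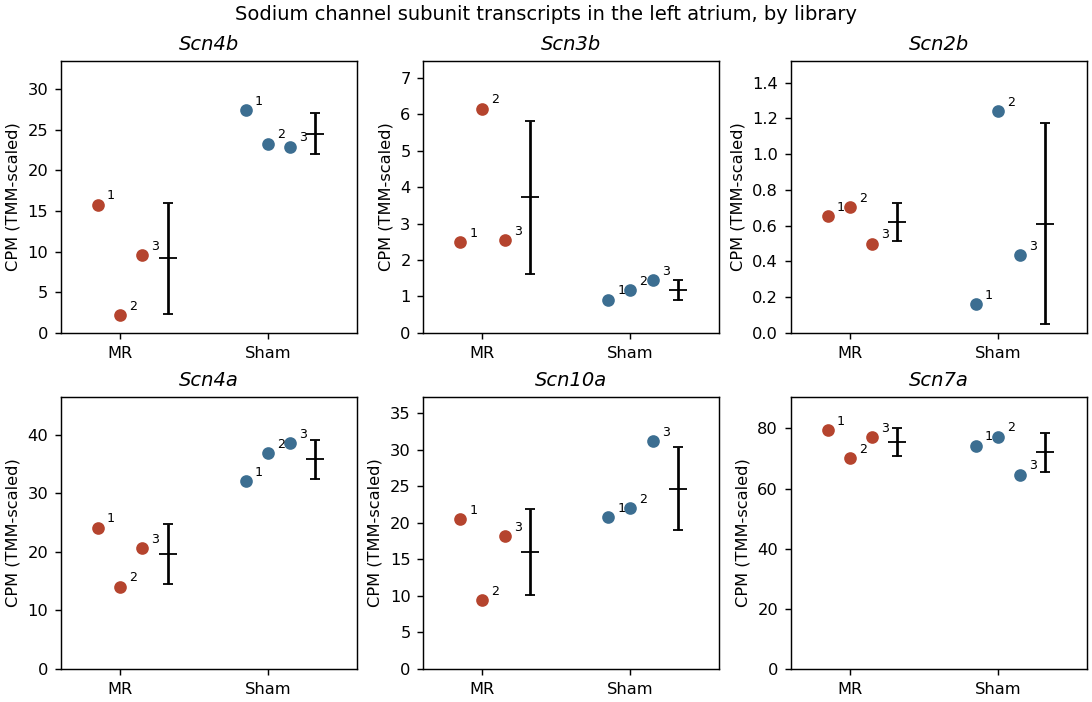
TMM-scaled CPM of each sodium channel subunit gene in the 3 MR and 3 Sham libraries; points are libraries with their replicate number, and bars are mean ± SD. Scn4b and Scn4a were lower and Scn3b higher in all 3 MR libraries than in any Sham library, and MR library 2 had the lowest Scn4b, Scn4a and Scn10a and the highest Scn3b of all 6.

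Scn4b (ENSMUSG00000046480), the beta subunit gene with the highest level of the 3, fell in MR. It stood at 15.8, 2.18 and 9.58 CPM in MR libraries 1 to 3, against 27.4, 23.3 and 22.9 CPM in Sham libraries 1 to 3. The groups did not overlap, and the MR libraries differed far more among themselves than the Sham libraries did. The log2 fold change was -1.42 ± 0.45 (SE), a level 0.373 times that of Sham (edgeR adjusted p = 0.0461 over 15218 genes). Without MR library 2 the log2 fold change was -0.96 (edgeR adjusted p = 0.0131). The call ended, with the direction kept, without MR library 3 (edgeR adjusted p = 0.0823), without Sham library 1, 2 or 3 (0.146, 0.0988 and 0.0963) and with a DESeq2 test (0.181). In the authors' deposited table, whose tool is not given, the log2 fold change is -1.49 with an adjusted p of 0.000663.

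Scn3b (ENSMUSG00000049281) rose but stayed at a low level. It had 2.48, 6.15 and 2.54 CPM in MR libraries 1 to 3, against 0.906, 1.17 and 1.45 CPM in Sham libraries 1 to 3. MR library 2, the one with least Scn4b, had the most Scn3b, and every MR library was above every Sham library. In counts, 185 reads in MR stood against 53 in Sham. The log2 fold change was 1.67 ± 0.40 (SE), or 3.18-fold (edgeR adjusted p = 0.0171). Without MR library 2 it was 1.12 (edgeR adjusted p = 0.0353). The call ended without Sham library 1 or 2 (edgeR adjusted p = 0.082 and 0.056).

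Scn2b (ENSMUSG00000070304) was close to the limit of detection. It had 10, 11 and 10 counts in MR libraries 1 to 3, against 3, 17 and 6 counts in Sham libraries 1 to 3, so that the groups overlapped. Its log2 fold change was 0.08 ± 0.60 (SE) and did not pass (edgeR adjusted p = 0.934). With 31 counts in MR and 26 in Sham, the ratio after scaling was 1.08, with an exact 95% interval of 0.623 to 1.9 that covers counting error only. Its log2 fold change was 1.1 without Sham library 2 and -0.45 without Sham library 1, so single Sham libraries decide its value. At this depth no change of Scn2b could be shown or bounded beyond that spread.

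The share of each beta subunit gene within a library does not depend on how libraries are scaled and is given as a description, with no test. Scn4b gave 84.2%, 25.5% and 77% of the summed TPM of the 3 beta subunit genes in MR libraries 1 to 3, against 96.5%, 90.7% and 92.8% in Sham libraries 1 to 3. Scn3b gave 12.1%, 65.7% and 18.7% in MR, against 2.91%, 4.15% and 5.36% in Sham. The ratio of Scn4b to Scn3b TPM was 6.95, 0.388 and 4.13 in MR libraries and 33.2, 21.9 and 17.3 in Sham libraries. In MR library 2 alone, Scn3b exceeded Scn4b.

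Scn4a (ENSMUSG00000001027), the pore subunit gene named for skeletal muscle, fell in MR. It had 24.1, 14 and 20.6 CPM in MR libraries 1 to 3, against 32, 36.8 and 38.5 CPM in Sham libraries 1 to 3. The groups did not overlap, and MR library 2 was again the lowest. The log2 fold change was -0.87 ± 0.17 (SE), a level 0.548 times that of Sham (edgeR adjusted p = 0.00836). This call held with each library left out in turn, with log2 fold changes from -1.05 to -0.67. Of the defining genes of fast skeletal muscle, Myh4, a myosin, was at 0 counts in all 6 libraries, and Myh1 had at most 1 count. Of the 6 fast skeletal muscle markers that could be tested 2 rose and 2 fell, so the calls gave no common direction. The falls were Tnni2, the fast troponin I (1.15 to 5.56 CPM in MR and 16.2 to 24.1 CPM in Sham), and Ckm (285 to 415 and 496 to 592 CPM). The sum of the 10 listed markers was lower in MR, at 297 to 431 CPM against 517 to 612 CPM in Sham. Ckm gave most of that sum, and which cells its reads came from was not tested. The rises were Actn3 (4.42 to 5.99 CPM in MR and 0.949 to 1.92 CPM in Sham) and Pvalb (0.948 to 2.56 and 0.0533 to 0.145 CPM).

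Scn10a (ENSMUSG00000034533) was lower in MR without passing the test. It had 20.5, 9.41 and 18.2 CPM in MR libraries 1 to 3, against 20.8, 22 and 31.2 CPM in Sham libraries 1 to 3. The highest MR value lay just under the lowest Sham value, so the groups were separated by a narrow margin. In TPM the groups overlapped, at 6.75, 3.13 and 5.61 TPM in MR and 5.28, 5.45 and 8.32 TPM in Sham. The log2 fold change was -0.61 ± 0.25 (SE; edgeR adjusted p = 0.107), with values of -0.34 without MR library 2 and -0.42 without Sham library 3. It passed without MR library 1 (-0.83, edgeR adjusted p = 0.0482). The authors' deposited table gives a log2 fold change of -0.63 with an adjusted p of 0.0326. Nerve cell markers, whose part in this level was not tested, summed to 19.4 to 23.8 CPM in MR and 6.2 to 9.18 CPM in Sham. Of these 12, Chat, Slc18a3 and Npy were at 0 counts in all 6 libraries and Snap25 had at most 1 count, while 2 of the 3 that could be tested rose.

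Scn7a (ENSMUSG00000034810) was the pore subunit gene whose groups overlapped in CPM. It had 79.4, 70.2 and 77.0 CPM in MR libraries 1 to 3, against 74.2, 77.3 and 64.6 CPM in Sham libraries 1 to 3. The log2 fold change was 0.07 ± 0.10 (SE; edgeR adjusted p = 0.661). On the TPM scale it was higher in all MR libraries, at 28.3, 25.3 and 25.7 TPM in MR against 20.5, 20.8 and 18.7 TPM in Sham, and passed (limma-trend log2 fold change 0.40, adjusted p = 0.0133). That scale raised the median of all tested genes by 0.33, and Scn7a was 0.07 above that median on both scales. Markers of Schwann and satellite glia summed to 78.2 to 93.1 CPM in MR and 63.3 to 76.5 CPM in Sham, with 2 of 9 tested higher and 0 lower, and their part in the level of Scn7a was not tested. As a ratio within each library, Scn7a stood at 3.17, 4.82 and 3.58 times the TPM of Scn4a in MR libraries, against 2.23, 2.02 and 1.61 times in Sham libraries.

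In all, 2 of the 6 genes were called lower, where 10.6% of the 15218 tested genes were, and 1 was called higher, where 11.8% were, so 3 were called in either direction against 22.4%. All 6 passed the filter on low counts. Groups did not overlap in CPM for 4 of the 6, against 41.9% of all tested genes. Of these, 3 had MR below Sham (21.2% of tested genes) and 1 had MR above (20.6%). In TPM the groups overlapped for Scn10a, whereas Scn7a was higher in every MR library. By size of change, 0.453% of tested genes had a lower log2 fold change than Scn4b, 1.7% a lower one than Scn4a and 4.53% a lower one than Scn10a, while 98.5% had a lower one than Scn3b.

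The share of all tested genes called, against which the calls under each alternative are to be read, was 22.2% with DESeq2 size factors, 30.2% with library totals, 16.1% with no filter on low counts, 23.4% with at least 1 CPM in 3 libraries and 22.4% without mitochondrial and haemoglobin genes. It was 18.6% with the DESeq2 test, 21.6% with limma-voom, 40.3% with TPM values, 20.3% with the replicate block, 25.1% with GC content and length trends removed and 56.1% with cardiomyocyte marker scaling. Without MR library 1, 2 or 3 it was 22.2%, 12.6% and 17%, without Sham library 1, 2 or 3 it was 10.1%, 12.2% and 14.6%, and with MR library 3 kept alone it was 6.02%.

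**Figure D2:**
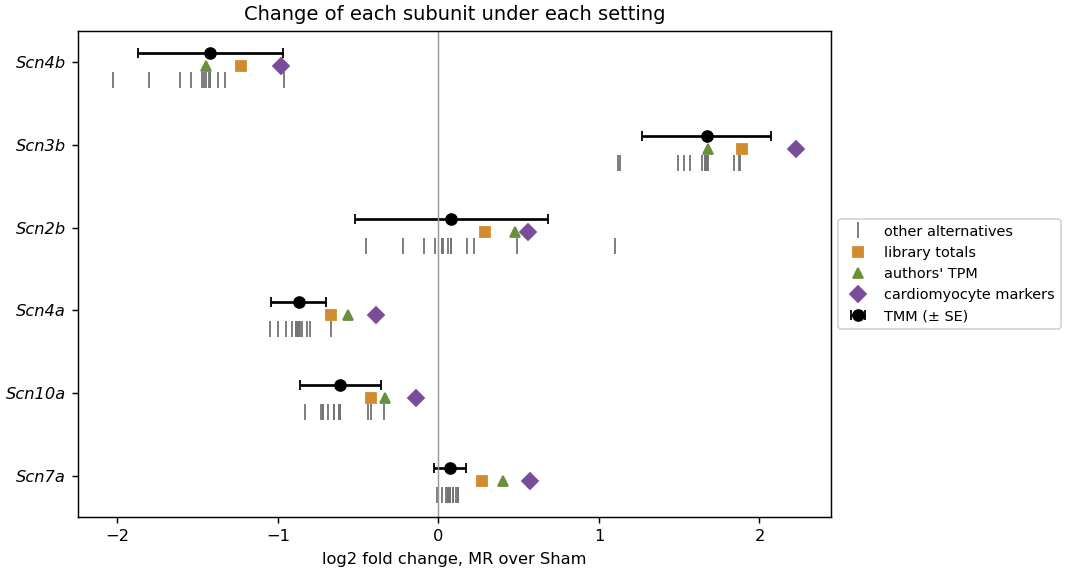
Log2 fold change of MR over Sham for each subunit gene; black points are the TMM fit with its SE, coloured symbols 3 other scalings, and grey ticks the remaining alternatives, each library left out included. Scn4b, Scn4a and Scn10a stayed below 0 and Scn3b above 0 throughout, whereas Scn2b and Scn7a fell on both sides of 0. Scn7a ran from -0.01 without Sham library 3 to 0.57 with cardiomyocyte markers, and was 0.07 with TMM.

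Set against the atrial cardiomyocyte markers of the same library, both Scn4b and Scn4a stayed lower in every MR library than in any Sham library. The geometric mean of the 8 markers was 6280, 4890 and 5540 CPM in MR libraries and 8160, 7330 and 8180 CPM in Sham libraries. Per 1000 CPM of this mean, Scn4b stood at 2.51, 0.445 and 1.73 CPM in MR and 3.36, 3.18 and 2.79 CPM in Sham, without overlap. Scn4a stood at 3.83, 2.85 and 3.72 CPM in MR and 3.92, 5.02 and 4.71 CPM in Sham, also without overlap but by a narrow margin. For Scn10a the groups overlapped, at 3.27, 1.92 and 3.28 CPM in MR and 2.55, 3.01 and 3.81 CPM in Sham. With these markers in place of TMM, the edgeR log2 fold change was -0.98 for Scn4b (adjusted p = 0.0285), -0.39 for Scn4a (adjusted p = 0.0538), -0.14 for Scn10a (adjusted p = 0.583) and 2.23 for Scn3b (adjusted p = 0.000897). Scn7a had 0.57 (adjusted p = 0.00606). This scale raised the median of all tested genes by 0.51, and all these values include that shift.

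**Figure D3:**
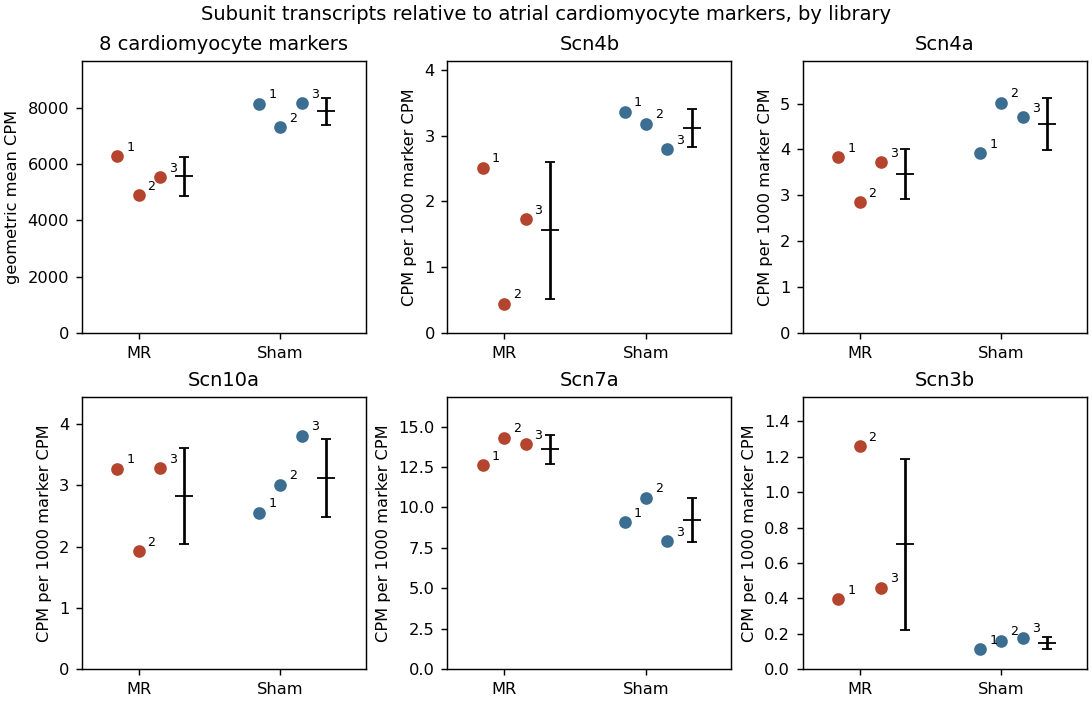
Geometric mean CPM of 8 atrial cardiomyocyte markers, and CPM of 5 subunit genes per 1000 CPM of that mean, in the 3 MR and 3 Sham libraries; points are libraries with their replicate number, bars mean ± SD. The marker mean, Scn4b and Scn4a were lower in every MR library, Scn7a and Scn3b were higher in every MR library, and the groups overlapped for Scn10a.

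The genes whose levels ran most nearly in parallel with each subunit were found by the root mean square difference of log2 CPM over the 6 libraries, each gene centred on its own mean. The nearest to Scn4b were Bmp3, Lrtm1 and Sypl2, at differences of 0.19, 0.34 and 0.39 among 12783 candidates. Bmp3, a ligand of the BMP family, had 32.4, 3.52 and 14 CPM in the 3 MR libraries, against 46.1, 41 and 46.6 CPM in Sham libraries 1 to 3, the same order within MR as Scn4b. For Scn3b the nearest were Unc5b, a netrin receptor gene, Wnt2b, a Wnt ligand gene, and Krt80, a keratin gene, at 0.10, 0.11 and 0.13. Unc5b was at 41.3, 79.7 and 41.3 CPM in MR and 20.2, 22.7 and 23.7 CPM in Sham, with the high value of MR library 2 seen for Scn3b. For Scn4a they were the muscle genes Fhod3, Lmod3 and Hspb6, at 0.05, 0.06 and 0.06, and for Scn10a Asb15, Card14 and Alox5, at 0.10 to 0.11. The nearest to Scn7a were 5730480H06Rik, St3gal5 and Txlng, each at 0.04, and among those to Scn2b were Itga2b and Pcdhb3, at 0.14 and 0.19. With 6 libraries in 2 groups, such likeness describes these libraries and carries no test.

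**Figure D4:**
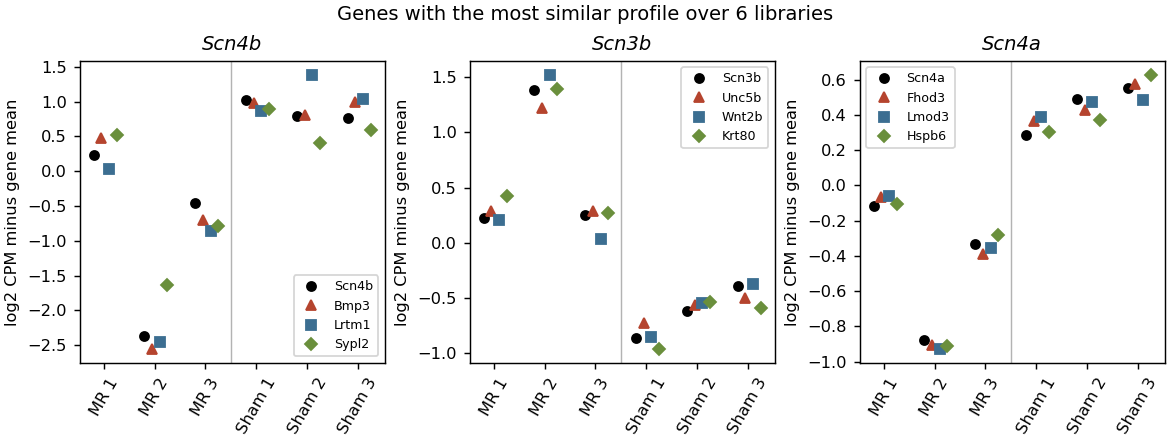
Log2 CPM of Scn4b, Scn3b and Scn4a and of the 3 genes nearest to each, minus each gene's mean over the 6 libraries; each position on the x axis is 1 library, MR left of Sham. In each panel MR library 2 stands farthest from the Sham libraries, and the nearest gene to Scn4b, Bmp3, was at 3.52 CPM there.

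Among 31 tested genes known to bind, deliver or modify sodium channels, 9 fell and 0 rose. Of all tested genes, 10.6% fell and 11.8% rose. The median log2 fold change of these partner genes was -0.12, where the median of all tested genes was 0. Cav3, which encodes the muscle caveolin of membrane pits that hold sodium channels, had 32, 28.2 and 33.4 CPM in the 3 MR libraries against 58.1, 50 and 53.1 CPM in Sham libraries 1 to 3 (log2 fold change -0.78 ± 0.10, edgeR adjusted p = 0.00157). Fgf12, an intracellular FGF-like protein gene whose product binds the tail of the channel and shifts its inactivation, was at 174, 134 and 179 CPM in MR against 279, 265 and 260 CPM in Sham (-0.72 ± 0.12, edgeR adjusted p = 0.00449). Its relative Fgf13, named here after its values were seen, also fell (-0.77 ± 0.19, edgeR adjusted p = 0.0182). Fgf11 and Fgf14 had log2 fold changes of -0.11 ± 0.11 and -0.16 ± 0.22 and did not pass. Tcap, the Z-disc protein telethonin, was at 1560, 1090 and 1350 CPM in MR against 3500, 2210 and 3080 CPM in Sham (-1.14 ± 0.19, edgeR adjusted p = 0.00502). The marker genes of cardiomyocytes also fell, and their part in these falls was not tested. With these markers in place of TMM 1 partner gene fell and 15 rose, on a scale that raised the median of all tested genes by 0.51. With library totals alone 5 fell and 1 rose (median of all genes 0.21), and with TPM values 3 fell and 7 rose (median of all genes 0.33). Without MR library 2, Sham library 1 or Sham library 3, 5 fell and 0 rose, and 4 fell and 0 rose with MR library 3 kept alone, a fit whose spread comes from the Sham libraries.

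Proteases that cut beta subunits and the adhesion proteins that they meet showed no common direction. Of 13 tested, 3 rose and 2 fell, where 11.8% and 10.6% of all tested genes did, with a median of 0.08. Cdh2, the N-cadherin of the intercalated disc, fell, at 85.3, 70.4 and 77.8 CPM in MR against 107, 120 and 129 CPM in Sham (-0.61 ± 0.11, edgeR adjusted p = 0.00568). Nfasc, the adhesion molecule neurofascin, rose from few reads, at 3.92, 2.88 and 1.1 CPM in MR against 0.16, 0 and 1.08 CPM in Sham (2.69 ± 0.77, edgeR adjusted p = 0.0325). Bace2, a relative of the protease that cleaves beta subunits, rose, at 40.7, 92.6 and 58.5 CPM in MR against 36.9, 41.2 and 28.1 CPM in Sham (0.85 ± 0.25, edgeR adjusted p = 0.0376). MR library 2 was again the highest for Bace2, and its groups overlapped. Of the rises of this list, 0 were called without MR library 2, Sham library 1 or Sham library 2, 1 without MR library 1 or Sham library 3, and 0 with DESeq2. Nfasc had log2 fold changes of 2.61, 2.23 and 2.15 without MR library 2, Sham library 1 and Sham library 2, and Bace2 had 0.49, 0.88 and 0.97, in fits that called 10.1% to 12.6% of all tested genes. For the falls, the 2 calls became 1 without MR library 2 or 3, or without Sham library 1, 2 or 3.

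Among 15 transcription factor genes linked to cardiac sodium channel genes, 3 rose and 3 fell, with a median of 0.05. Of all tested genes, 11.8% rose and 10.6% fell. Nkx2-5, a core factor of heart muscle, fell to 25.7, 26.3 and 26.4 CPM in MR, against 36.2, 37.9 and 38.3 CPM in Sham (-0.52 ± 0.08, edgeR adjusted p = 0.00315), and had -0.01 with the cardiomyocyte markers in place of TMM (edgeR adjusted p = 0.97), where the median of all genes was 0.51. Gata5, a zinc-finger factor gene, rose, at 6.93, 11.2 and 7.48 CPM in MR against 2.34, 1.68 and 1.3 CPM in Sham (2.23 ± 0.26, edgeR adjusted p = 0.00126). Without MR library 2 or Sham library 1, 2 or 3, 1 of the 3 rises was called.

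**Figure D5:**
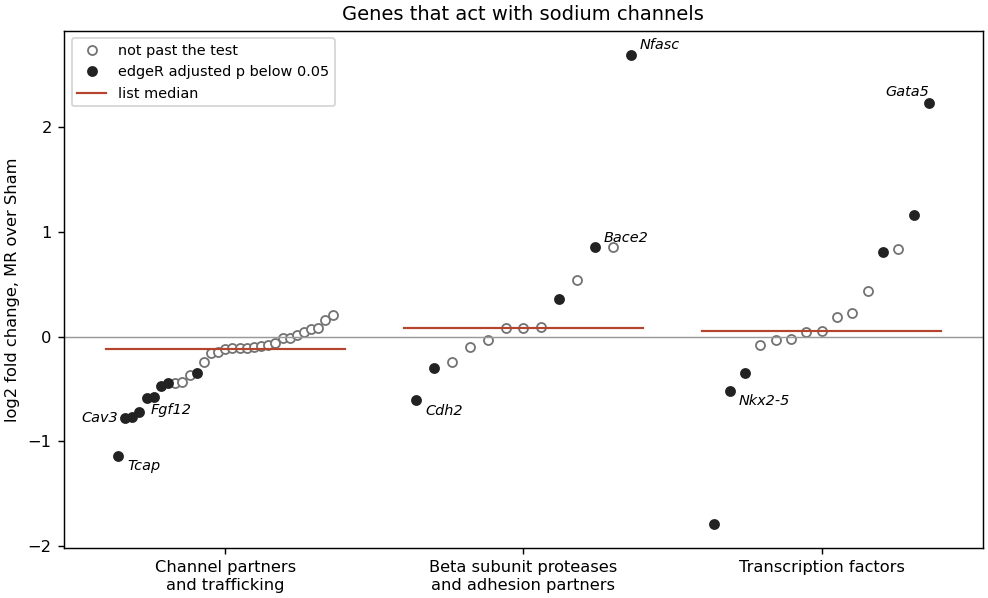
Log2 fold change of MR over Sham for the tested genes of 3 lists, sorted within each list; filled points passed the edgeR test, open points did not, and red lines are list medians. The partner list held 9 calls below 0 and 0 above, where 10.6% and 11.8% of all tested genes were called lower and higher. The other lists had calls on both sides. The labelled genes are those described by name in the text from among the smallest p-values of each list.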

How the data were processed

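The deposited table holds 55471 mouse genes with raw counts per gene, which the authors did not normalize, per the file headers, and TPM values that the authors scaled by gene length to the same total in each library. It also holds the authors' log2 fold change and p-values per the file headers; the tool behind these columns is not given in the sources used here. The submitters' processing notes name HISAT2 2.1.0, featureCounts of Subread 2.0.1, DESeq2 and the build GRCm39, without settings. The strand setting is not given in the sources used here; the genes opposite Scn2b and Scn3b in the GENCODE M21 annotation had at most 2 counts in any library.

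The count test was edgeR's quasi-likelihood F test (version 4.0.16, R 4.3.3) after TMM scaling, the filterByExpr filter (15218 genes, 99.8% of the counts) and Benjamini-Hochberg adjustment over these genes at 0.05. The SE is the log2 fold change divided by the root of the F statistic. Alternatives used DESeq2 1.42.0, limma 3.58.1 (voom, and a trend fit on log2(TPM + 0.1)), other scalings and filters, a replicate block, and each library left out. GC content and length trends (splines with 5 degrees of freedom, 99.9% of tested genes matched) and the scaling by cardiomyocyte markers were added after the data were seen. The members and lists were chosen with earlier results of these data known. Named genes are the members, the 3 smallest p per list and the 3 nearest protein-coding genes of at least 1 CPM (log2 of CPM + 0.5). Results of further sodium channel genes, and of some genes that the naming rule picks, are not reported here. Libraries of one group differed at a chi-square per gene of 12 to 20.8, and none was counted as a duplicate. The edgeR fit was checked on simulated counts first. Columns of per-sample values left unused numbered 0.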

Additional observations from a re-analysis of the deposited data

How the results depend on the processing

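Over 18 alternatives, the log2 fold change of Scn4a ranged from -1.05 to -0.39 and kept its call in 17, that of Scn3b from 1.12 to 2.23 with its call in 15, and that of Scn4b from -2.03 to -0.96 with its call in 11. Scn4b lost it also with library totals (adjusted p = 0.0573) and with TPM values (0.0732). The authors' deposited log2 fold changes are 1.57 for Scn3b (adjusted p = 9.82e-05), -1 for Scn4a (3.36e-06), 0.04 for Scn2b (0.851) and 0.07 for Scn7a (0.628). Adjusted p-values ran from 3.29e-22 to 0.181 for Scn4b, the lowest from edgeR with no filter on low counts. Scn10a also passed in that setting (2.85e-05). The log2 fold changes hardly moved there, at -1.43 for Scn4b and -0.62 for Scn10a. The SE, however, was 0.14 in place of 0.45 for Scn4b and 0.13 in place of 0.25 for Scn10a. These 2 low p-values thus come with a smaller SE and not with a larger change, although the MR libraries differed widely in Scn4b. This setting is among the 11 that kept the Scn4b call. The range was 2.85e-05 to 0.583 for Scn10a and 0.00606 to 0.956 for Scn7a. Deviations from the group means correlated at -0.01, -0.01 and -0.19 between same-numbered libraries, and at -0.16 to 0.18 between differently numbered ones. These values show no pairing by replicate number, but with 3 libraries a group they cannot exclude a shared origin. With the replicate block 3085 genes passed in place of 3408, Scn10a passed (-0.65, adjusted p = 0.0329) and 1 protease or adhesion gene fell in place of 2.

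Among all genes, 6140 passed with TPM values, 976 with MR library 3 kept alone (that lone library is assumed to vary like the Sham libraries), 8542 with cardiomyocyte marker scaling and 1583 to 3453 with 1 library left out. Library totals gave 4025 higher and 574 lower, where TMM gave 1793 and 1615, and shifted the median by 0.21; TPM gave 5891 and 249, and cardiomyocyte marker scaling 8404 and 138. The lower calls among the 6 subunit genes were 1 with library totals, DESeq2, TPM or marker scaling and 1 to 3 with 1 library left out. The higher calls were 2 with TPM or marker scaling, 0 with MR library 3 alone and 0 to 1 with 1 library left out. For partner genes, falls numbered 5, 3, 4 and 1 with library totals, TPM, MR library 3 alone and marker scaling (5 to 11 with 1 library left out), and rises 1, 7, 0 and 15 (0 to 0). For protease and adhesion genes the same 4 settings gave 1, 0, 1 and 0 falls (1 to 2) and 6, 7, 1 and 10 rises (0 to 2), with 0 rises in DESeq2. For transcription factors they gave 2, 1, 1 and 1 falls (2 to 3) and 5, 5, 1 and 12 rises (1 to 3). The cause of these differences was not tested. Depth limits Scn2b most, at 3 to 17 counts per library.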
